A study of Mus musculus with 60 samples.

Results

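The features described here are those of a 16S rRNA gene survey of mice whose taxonomy label placed them in Verrucomicrobiota, the phylum of the mucin degrader Akkermansia, or in Desulfobacterota, the phylum of the sulfate and sulfite reducers Desulfovibrio and Bilophila. A feature is one sequence entry of the deposited count table. Of 8574 features, 71 belonged to these phyla, 27 to Verrucomicrobiota and 44 to Desulfobacterota, and they held 208579 counts. The study gave PET nanoplastics (particles of polyethylene terephthalate, a plastic of bottles and fibres) to 6 male mice by gavage, 0.5 mg/day for 28 days in a volume of 0.1 ml, and left 6 male mice unexposed. Stool was sampled at week 1 and again at day 28, when colon, lung and mouth were sampled too, with 6 libraries in each of the 10 groups of site, time and arm. The labels used here give neither strain nor age, do not say whether controls received a vehicle, and tie no library to an animal across sites. Stool and oral swab DNA came from one extraction kit and colon and lung DNA from another, so kit and site cannot be told apart between these pairs.

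Akkermansia lives in the mucus layer of the gut and grows on the sugars of mucin, the main protein of mucus. Desulfovibrio uses sulfate, some of it freed from mucin by other bacteria, as the acceptor for electrons from hydrogen or lactate and gives off hydrogen sulfide. Bilophila makes the same gas from sulfite, which it takes from taurine, a compound released from bile acids.

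Values are shares, in percent of the prokaryote counts of a library. A share is relative, so that less of one taxon and more of the others cannot be told apart. Library totals ran from 16521 to 1083575 counts in week 1 stool, 245032 to 602305 in day 28 stool, 59063 to 280575 in colon, 10543 to 326834 in lung and 119454 to 428830 in oral swabs. Families of gut bacteria held 37.4% to 62.5% of stool counts, and oral genera held 40.8% to 95.5% of oral swab counts. Helicobacter led 11 of 12 colon libraries with 39.6% to 96.4%, and gut families held 0.651% to 44.5% of colon counts. Lung libraries were mixed. In controls and exposed mice respectively, gut families held 8.47% to 65.1% and 8.72% to 33.6% of lung counts, genera often met in reagents held 0.841% to 24.7% and 5.62% to 26%, and oral genera held 0.557% to 3.16% and 0.322% to 5.01%. The part of these sources in the lung results was not tested.

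Most of the 71 features were rare. 49 were seen in 1 library, 30 had under 10 counts and 10 had 1000 counts or more. In Verrucomicrobiota 2 features held 99.1% of 115373 counts, and in Desulfobacterota 2 features held 83.4% of 93206 counts. Features are numbered within a genus by total counts.

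The name mucin degraders fitted only a part of Verrucomicrobiota. Chlamydia, a genus of bacteria that live inside host cells and are not known for mucin breakdown, is counted in this phylum only because its taxonomy label places it there. It held 61.7% of the counts under the phylum label, in 6 features. Its feature 1 held 71074 counts, was seen in 36 of 60 libraries and carried the species label Chlamydia muridarum, a mouse pathogen, with a classifier confidence of 0.999. Akkermansia held 37.6% in 8 features. Its feature 1 held 43212 counts, was seen in 50 libraries and carried the label Akkermansia muciniphila with a confidence of 0.893. The other 13 features of the phylum held 811 counts under 7 labels.

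Akkermansia was scarce in stool, higher in colon tissue and highest in lung. In week 1 stool the control libraries lay between 0 and 0.0107% (median 0.00695%) and the PET libraries between 0.00624% and 0.0252% (median 0.0131%). In day 28 stool the lowest, median and highest shares were 0, 0.000673% and 0.0176% in controls and 0, 0.00123% and 0.00239% in PET libraries. At this time 7 of 12 libraries held any count. In colon the control libraries lay between 0.00124% and 0.0919% (median 0.0168%) and the PET libraries between 0.0165% and 0.891% (median 0.0480%).

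The lung shares of Akkermansia spread widest. Control libraries 1 to 6 had 0.0202%, 0.0554%, 0.437%, 8.74%, 0 and 0.567%. PET libraries 1 to 6 had 0.0992%, 1.72%, 0.308%, 52.7%, 0.409% and 0.198%. Akkermansia was the most abundant genus in lung control library 4 and lung PET library 4, where it had 95% Wilson intervals of 8.58% to 8.90% and 52.2% to 53.1% that cover counting error only. Of 39228 lung counts of the genus 39223 were feature 1, the same feature that led in stool and colon. In lung control library 4 gut families held 8.47% and reagent genera 8.24%, and in lung PET library 4 gut families held 12.0%, reagent genera 5.62% and oral genera 0.322%.

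Oral swabs held little Akkermansia, 0.00347% to 0.0112% in controls (median 0.00685%) and 0.00205% to 0.0391% in PET libraries (median 0.0188%). By median over 12 libraries the order was lung 0.359%, colon 0.0285%, oral swab 0.00935%, week 1 stool 0.00769% and day 28 stool 0.00112%. The ranges of every neighbouring pair in this order overlapped.

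**Figure D1:**
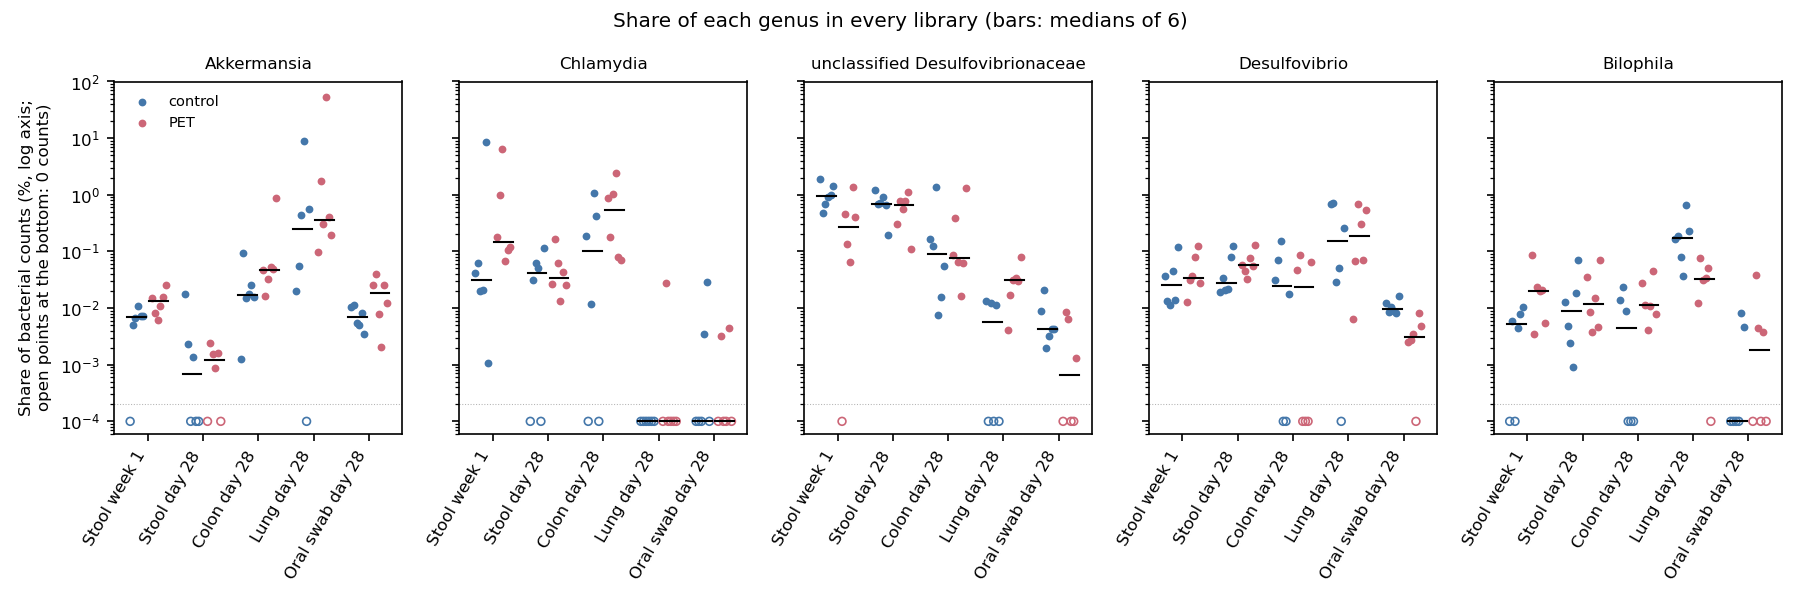
Each panel shows 1 genus, with its share of bacterial counts in percent on a log axis and the sites and times along the horizontal axis. Each point is 1 library, coloured by arm, open points at the bottom are libraries without a count, and bars are medians of 6 libraries. Akkermansia is highest in lung, up to 52.7%, Chlamydia is found in stool and colon, in 4 oral swabs and in 1 lung library, and unclassified Desulfovibrionaceae is highest in stool.

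Sites were compared at day 28 with edgeR's quasi-likelihood F test over 48 libraries, both arms averaged, with Benjamini-Hochberg adjustment and a threshold of 0.05. By the design the same mice were sampled at several sites, yet the fit treats all libraries as independent. Its standard errors and p-values do not allow for this. The median of all 313 tested genera moved between sites on the scale of this fit, by a log2 difference of 1.45 from stool to colon, 6.07 from stool to lung and 2.82 from stool to oral swab. It was -3.23 for colon minus lung and 2.12 for lung minus oral swab. These medians are the values to read each difference against.

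Akkermansia was higher in colon than in stool by 5.98 ± 1.26 (log2 ± SE, adjusted p = 0.000148), 4.53 above the median genus. It was higher in lung than in stool by 10.87 ± 1.54 (adjusted p = 3.55e-08), 4.80 above the median, and higher in oral swab than in stool by 4.14 ± 1.16 (adjusted p = 0.00193), 1.31 above it. Between colon and lung the median genus was also lower in colon, by the value given above. Only what goes beyond that median sets Akkermansia apart there. Akkermansia was lower in colon than in lung, with a log2 difference of -4.90 ± 1.20 (edgeR adjusted p = 0.00120). That difference ran between -5.57 and -2.29 when 1 library was left out, and 2 of these 48 fits lost the call, those without lung control library 4 (-2.29, edgeR adjusted p = 0.0516) or lung PET library 4 (-2.45, edgeR adjusted p = 0.0591). Lung exceeded oral swab by 6.74 ± 1.31 (adjusted p = 0.000135), 4.62 above the median. The limma fit on centred log ratios called neither of these 2 differences, with -0.57 for colon minus lung (adjusted p = 0.693) and 1.74 for lung minus oral swab (adjusted p = 0.207). With features of classifier confidence under 0.9 left out, which removes Akkermansia feature 1, all 5 calls ended. The differences were then 3.02, 2.38 and 4.49 for colon, lung and oral swab against stool, and the direction turned to 0.64 for colon minus lung and -2.11 for lung minus oral swab.

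Chlamydia followed another order, with the gut sites high and the lung nearly empty. In week 1 stool, control libraries had 0.0424%, 0.0625%, 0.0198%, 0.0211%, 8.65% and 0.00105%, and PET libraries had 0.176%, 1.01%, 6.32%, 0.0665%, 0.105% and 0.118%. In day 28 stool, control libraries had 0, 0.0319%, 0.0631%, 0.0511%, 0 and 0.117%, and PET libraries lay between 0.0135% and 0.169% (median 0.0346%). Libraries above 1% were control library 5 and PET libraries 2 and 3 of week 1, and none at day 28.

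In colon, Chlamydia shares were 0.188%, 0, 0.0117%, 1.08%, 0.414% and 0 in controls and 0.886%, 0.181%, 1.04%, 2.44%, 0.0806% and 0.0714% in PET libraries. Chlamydia was the second genus after Helicobacter in colon control library 4 and PET libraries 3 and 4. The 20 counts of colon control library 3 came from feature 3, so that feature 1 was found in 3 of 6 control and 6 of 6 PET colon libraries. In lung, 0 of 803322 control counts were Chlamydia, which allows a share of up to 0.000373%, and the PET libraries held 8 counts, all in library 2 (0.0275%, Wilson interval 0.0139% to 0.0542%). Oral swabs held it in 4 of 12 libraries, at 0.0289% or less. Chlamydia exceeded stool in colon by 6.05 ± 1.41 (adjusted p = 0.000508), 4.61 above the median genus. This call was lost with library totals as the scale (3.24, adjusted p = 0.0537) and with limma (1.16, adjusted p = 0.509). Lung minus stool was -6.48 ± 1.53 (adjusted p = 0.000164), and colon exceeded lung by 12.53 ± 1.88 (adjusted p = 8.69e-07). The lung value was also lower than the oral one, at -3.87 ± 1.39 (adjusted p = 0.0213), while oral swab and stool did not differ past the threshold (-2.60 ± 1.21, adjusted p = 0.0709). Oral control library 5 bore on both: without it lung minus oral swab was -2.74 and lost its edgeR call (adjusted p = 0.0788), and oral swab minus stool was -3.74 and gained one (adjusted p = 0.0154). Lung minus oral swab was also not called with library totals (-2.46) or limma (-2.14). Oral swab was called lower than stool under 6 other settings, by -5.56 with limma, -4.21 with library totals, -4.20 with TMMwsp, -3.14 with DESeq2, -2.87 with no filter and -2.66 with a stricter filter.

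The rare Verrucomicrobiota were mostly seen in lung or mouth. Unclassified vadinBE97 had 395 counts in lung control library 2 (0.179%) and 70 counts in 2 oral swabs. Roseimicrobium was seen in lung control library 4 (0.117%). Victivallis, an anaerobe of the gut, held 0.0359% and 0.0899% of lung control libraries 2 and 6. Against day 28 stool, where none had a count, the pooled lung share was at least 621-fold higher for vadinBE97 feature 1, 216.9-fold for Roseimicrobium and 144.6-fold for Victivallis feature 1. These bounds take 3 counts over the group as the floor and rest on 1 or 2 libraries each. Unclassified Victivallaceae at day 28 had 2 counts in 1 stool library, 11 in 1 lung library and 52 in 2 oral swabs. It met the filter of 3 libraries only through the oral swabs, where it is highest, so no test is given for it.

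Of 7 tested genera of both phyla, 2 passed the threshold in colon against stool (22.7% of all 313 genera did), 4 in lung against stool (70.9%), 3 in oral swab against stool (49.5%), 3 in colon against lung (46%) and 3 in lung against oral swab (39.9%). Read against these shares of all genera, the counts are no result about the members. Unclassified Victivallaceae, counted for oral swab against stool, also passed the filter only through the oral swabs.

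**Figure D2:**
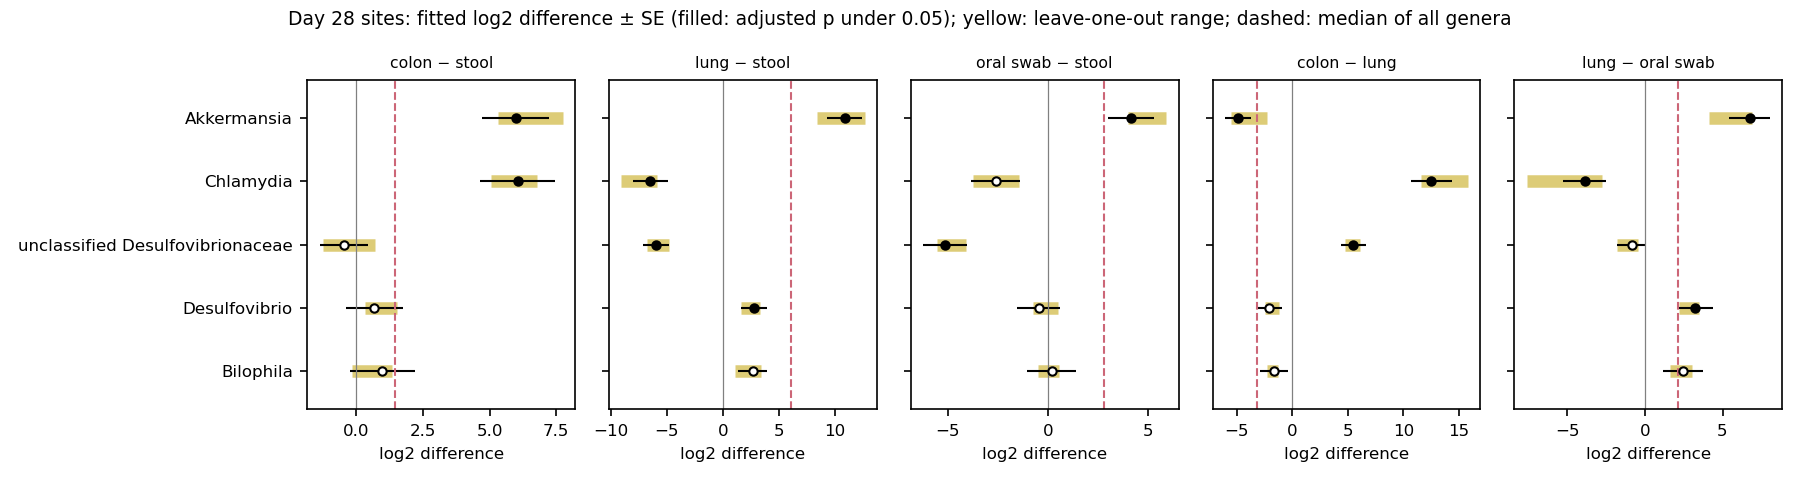
Each panel shows 1 comparison of sites at day 28, with the log2 difference of 5 genera on the horizontal axis. Points are estimates, filled where the adjusted p is below 0.05, thin bars are standard errors, yellow bands span the fits with 1 library left out, and the dashed line marks the median of all 313 genera. Akkermansia lies above the median in lung minus stool (10.87 against 6.07), while Chlamydia (-6.48) and unclassified Desulfovibrionaceae (-5.97) lie far below it.

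No genus of Verrucomicrobiota passed the threshold between exposed and unexposed mice. Tests used only the 12 libraries of a site and time. P-values measure the spread between these libraries. In all 5 comparisons the number of members called by edgeR was 0, as it was by limma, by exact permutation tests and by DESeq2, which gave no adjusted p for Akkermansia in lung and Chlamydia in week 1 stool. In edgeR 0 members had an unadjusted p under 0.05. Among all genera, 0.0% were called in week 1 stool, day 28 stool, lung and oral swab and 15.8% in colon. At an unadjusted p under 0.05 there were 11, 9, 20 and 9 genera in the first 4 of these and 27 in colon. For features 0.0% were called everywhere but in colon, where 2.35% of 468 were, none of them a member.

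In lung the mean Akkermansia share was 1.64% ± 3.49 in controls and 9.23% ± 21.3 in PET libraries (SD, n = 6), and the arms overlapped. The log2 difference, PET minus control, was 2.54 ± 1.70 (adjusted p = 0.818). Leaving out PET library 4 gave -2.24 and leaving out control library 4 gave 6.19, so 1 library set its direction. In colon the means were 0.0278% ± 0.0323 and 0.181% ± 0.348, with overlapping arms, and the difference was 1.48 ± 1.47 (adjusted p = 0.686). Without PET library 6, which had 0.891% (Wilson interval 0.857% to 0.927%), it was 0.03.

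In oral swabs the Akkermansia difference was 0.97 ± 0.71 (adjusted p = 0.876). Feature 2, which was seen in 3 libraries in all, held 0.0251% and 0.0309% of oral PET libraries 1 and 2. Feature 1 alone differed by 0.15 ± 0.93 (adjusted p = 0.997). In week 1 stool the difference was 0.79 ± 0.76 (adjusted p = 0.762), with an exact permutation p = 0.0325 and an adjusted p of 0.396, and in day 28 stool -1.60 ± 1.68 (adjusted p = 0.809), which turned to 0.49 without control library 1.

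The colon Chlamydia mean was 0.282% ± 0.422 in controls and 0.783% ± 0.915 in PET libraries (SD, n = 6), with overlapping ranges. The fitted log2 difference was -0.31 ± 1.27 (adjusted p = 0.931), opposite in sign to the means. The sign was positive with library totals as the scale (1.47), with limma on centred log ratios (2.81), with confident labels only (0.33) and in the permutation test (4.05), and none of these passed the threshold. In week 1 stool the difference was -0.19 ± 1.76 (adjusted p = 0.969) and ran from -2.41 without PET library 3 to 5.56 without control library 5.

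**Figure D3:**
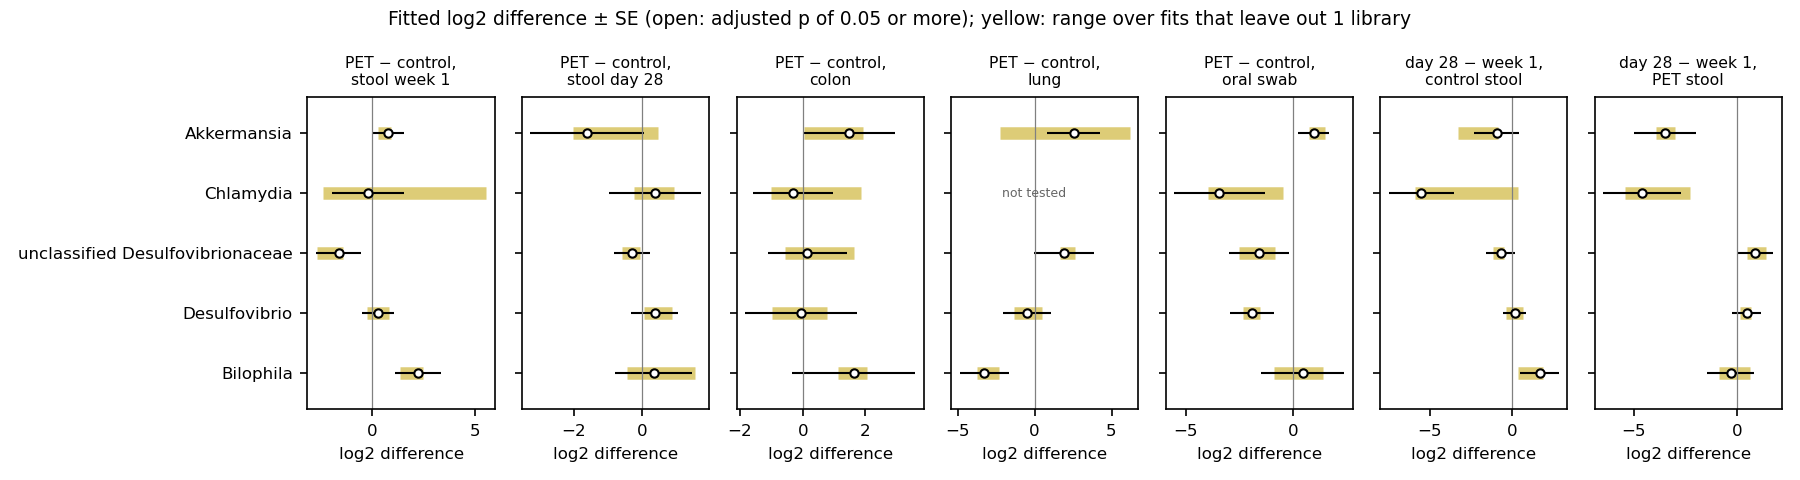
Each panel shows 1 comparison of exposure or time, with the log2 difference of up to 5 genera on the horizontal axis, open points for estimates, thin bars for standard errors and yellow bands for the span of the fits with 1 library left out. None passed the adjusted threshold of 0.05. The largest differences by size are the falls of Chlamydia in stool from week 1 to day 28 (-5.54 in controls, -4.59 in PET libraries).

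Over time in stool, Akkermansia shares of the PET arm did not overlap between week 1 and day 28. How many of all genera showed no overlap here was not measured. Week 1 libraries had 0.0154%, 0.00807%, 0.00624%, 0.0109%, 0.0155% and 0.0252%, and day 28 libraries had 0, 0.00239%, 0.00157%, 0.000885%, 0.00161% and 0. The log2 difference, day 28 minus week 1, was -3.48 ± 1.50 (edgeR adjusted p = 0.123) and lay between -3.93 and -2.99 when 1 library was left out. edgeR called 0.0% of 145 genera here, with 41 at an unadjusted p under 0.05. At genus level the other tests called Akkermansia. The adjusted p was 0.0242 with DESeq2 (8.28% of 145 genera called), 0.0235 with limma (8.97%) and 0.0380 with the exact permutation test (8.94%), whose p of 0.00216 was the smallest that 924 arrangements can give. All these tests treat the stool libraries of both times as independent, although stool was sampled again by the design. The permutation test was added after seeing the data. Among features it gave Akkermansia feature 1 an adjusted p of 0.205 and called 0 of 758, while DESeq2 called 1 Verrucomicrobiota feature.

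In the control arm the Akkermansia difference over time was -0.96 ± 1.37 (adjusted p = 0.803), where 0.0% of 145 genera were called and 27 had an unadjusted p under 0.05. The highest day 28 control was library 1 with 0.0176%, and 3 of the other libraries had none. The difference between the arms in their change over time was -2.52 ± 1.95 (adjusted p = 0.559), so the arms were not shown to differ (0.0% of 145 called, 35 at an unadjusted p under 0.05). The Chlamydia difference over time was -4.59 ± 1.89 in the PET arm (adjusted p = 0.123) and -5.54 ± 1.98 in controls (adjusted p = 0.183). The control value was 0.38 without week 1 control library 5. DESeq2 called Chlamydia in both arms, with adjusted p = 0.0472 in the PET arm and adjusted p = 0.0277 in controls. It called 2.76% of genera in controls.

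Desulfobacterota was a regular, minor phylum of stool. Its median share over 12 libraries was 0.593% in week 1 stool, 0.750% in stool of day 28, 0.135% in colon, 0.426% in lung and 0.0133% in oral swab. Unclassified Desulfovibrionaceae, features placed in the family of Desulfovibrio with no genus name, held 84% of its counts in 22 features. Desulfovibrio held 11.6% in 17 features and Bilophila 4.39% in 5.

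Unclassified Desulfovibrionaceae was found in 23 of 24 stool libraries. Week 1 control libraries lay between 0.472% and 1.88% (median 0.954%) and week 1 PET libraries between 0 and 1.37% (median 0.270%). Day 28 control libraries lay between 0.197% and 1.20% (median 0.697%) and PET libraries between 0.111% and 1.13% (median 0.667%). The library without a count, week 1 PET library 1, had 631843 prokaryote counts, so its upper Wilson bound was 0.000608%. In colon the shares ran from 0.00744% to 1.35% in controls (median 0.0912%) and from 0.0165% to 1.30% in PET libraries (median 0.0756%). Lung held 58 of 803322 prokaryote counts in controls and 60 of 290827 in PET libraries, with mean shares of 0.00620% and 0.0329%. Oral swabs held 201 counts in all.

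Feature 1 of this group held 71131 counts in 43 libraries and feature 2 held 6629 counts in 36. Feature 1 had no count in week 1 PET libraries 1 and 4, day 28 control library 6 and day 28 PET library 6, and held 0.108% to 1.81% of the other stool libraries. In day 28 control library 6 and PET library 6 feature 2 held 0.197% and 0.111%, the highest of that time. These 2 libraries, with lung control libraries 5 and 6, carry library numbers of a range apart from the rest, and what that range stands for is not given in the labels used here. Bilophila was also highest in these 2 stool libraries at day 28 (0.0706% and 0.0711%), and so was Desulfovibrio (0.127% and 0.129%). Without the 4 libraries of that range no member was called in the exposure or time comparisons either.

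Desulfovibrio shares in stool were alike in size at both times, with medians of 0.0251% (control) and 0.0341% (PET) at week 1 and 0.0278% and 0.0564% at day 28. In colon 4 of 6 control and 3 of 6 PET libraries held it, at up to 0.153% and 0.0879%. In lung the control libraries had 0.698%, 0.715%, 0.0288%, 0.0515%, 0 and 0.256%, and the PET libraries 0.00650%, 0.0687%, 0.695%, 0.300%, 0.0707% and 0.545%. Lung libraries of both arms therefore reached above the stool maximum of 0.129%, while others lay below the stool minimum.

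Bilophila medians were 0.00523% (control) and 0.0203% (PET) in week 1 stool, 0.00875% and 0.0119% in day 28 stool, and 0.00440% and 0.0111% in colon. Lung control libraries had 0.165%, 0.184%, 0.0783%, 0.0372%, 0.667% and 0.228%. Lung PET libraries had 0.0122%, 0.0756%, 0.0319%, 0.0343%, 0.0505% and 0. Oral swabs held it in 5 of 12 libraries, at up to 0.0384%.

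Under the same genus names, gut and lung mostly held different features. Desulfovibrio in day 28 stool was made up of feature 1 (59.1% of 2735 counts, labelled Desulfovibrio fairfieldensis), feature 3 (25.3%, the same label) and feature 4 (15.6%). In colon features 3 and 1 held 49.3% and 47.4% of 831 counts. In lung it was feature 2 (59.6% of 4567 counts, labelled Desulfovibrio piger) and feature 5 (16.2%), with no count of features 1 and 3. Bilophila was 97.4% feature 1 in day 28 stool (888 counts) and 90.4% feature 2 in lung (1812 counts), where feature 1 had none. Colon held both, 59.5% feature 1 and 36.4% feature 2 of 195 counts.

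**Figure D4:**
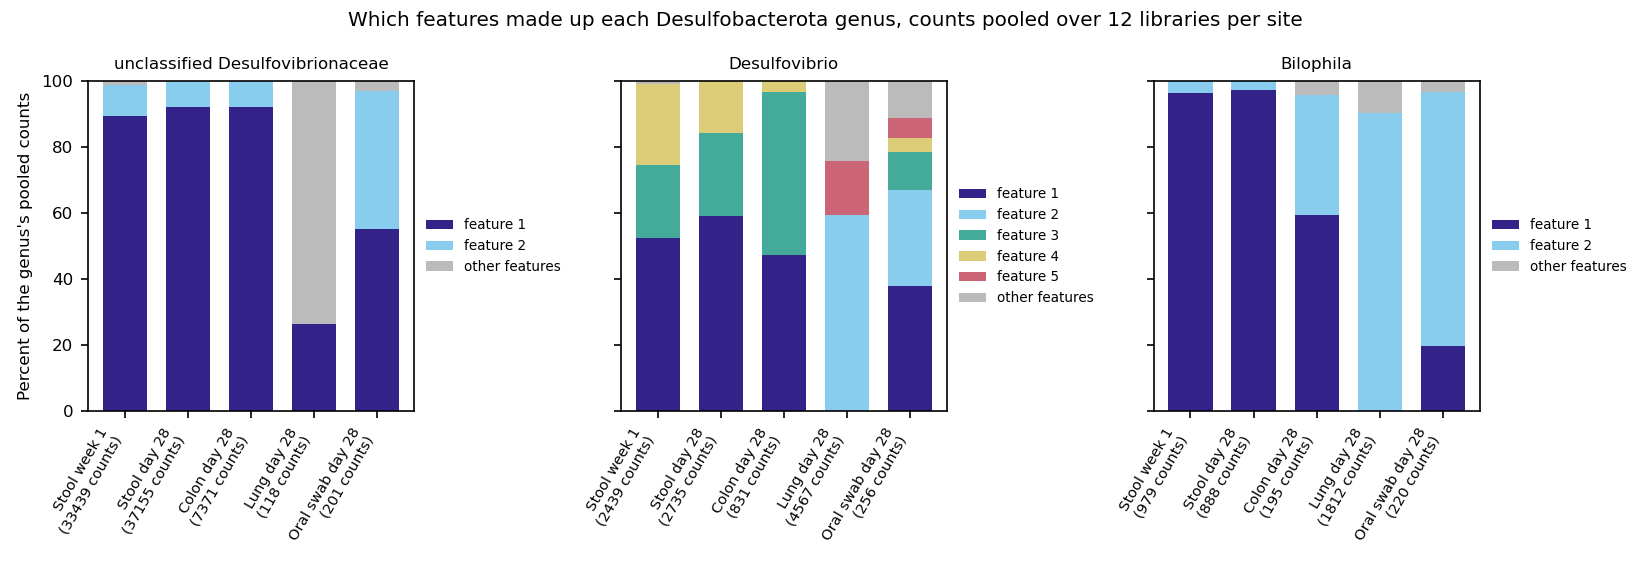
Each panel shows 1 Desulfobacterota genus, with bars for the sites and times, whose counts were pooled over 12 libraries, and segments for the percent of those counts held by each feature. Desulfovibrio feature 2 holds 59.6% and Bilophila feature 2 holds 90.4% of the lung counts, while feature 1 of each leads in day 28 stool with 59.1% and 97.4%.

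Over all 71 features, 42 were seen in stool or colon, 29 in lung and 6 in both, which is 14.3% of the gut features and 20.7% of the lung features. Over all 7922 prokaryote features 684 were seen in both, 16.5% of 4148 gut features and 19% of 3607 lung features, so the members' overlap is near that of all features. In Desulfobacterota 2 of 44 features were seen in both, and the 16 that lung had without stool or colon held 74.3% of the phylum's 6497 lung counts. In Verrucomicrobiota 4 of 27 were seen in both, and the 7 of lung alone held 1.61% of 39879 lung counts. Features that lung had without stool or colon held 11.8% of the lung counts of both phyla and 30% over all prokaryote features. Of the 23 lung features not seen in stool or colon, 16 were seen in 1 library. Among the 8 Desulfobacterota features with 1000 counts or more, 5 were seen in stool or colon and not in lung (Desulfovibrionaceae feature 2, Desulfovibrio features 1, 3 and 4, Bilophila feature 1), 1 the other way (Desulfovibrio feature 2) and 2 in both (Desulfovibrionaceae feature 1, Bilophila feature 2). Of all 844 features this abundant, 318 were seen in both, 40.3% of 790 gut features and 89.3% of 356 lung features. For the 10 such members of both phyla pooled the shares were near these, 44.4% and 80%. The phyla differed: both of the 2 Verrucomicrobiota features were seen in gut and lung. In Desulfobacterota 2 features were seen in both, of 7 gut features and 3 lung features. These are few features to set against all.

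Desulfovibrio feature 2 held 0.698% and 0.0422% of lung control libraries 1 and 4 and 0.0687%, 0.466%, 0.256% and 0.0707% of lung PET libraries 2 to 5. Feature 5 held 0.296% and 0.00929% of lung control libraries 2 and 4 and 0.0439% and 0.545% of PET libraries 4 and 6. Features 6 and 10 were each seen in 1 lung library, control 2 (0.309%) and control 6 (0.256%). The lead feature thus changed from one lung library to the next. With the floor of 3 counts over a group, the pooled lung share was at least 4279-fold higher than stool for feature 2 and at least 1166-fold higher for feature 5. These bounds rest on 6 and 4 of 12 lung libraries. Lung control library 1, where feature 2 was highest, was also the deepest lung library (321277 prokaryote counts) and weighs most in its pooled share. Neither feature had a count in stool or colon, and both entered the fit only through lung and oral swabs, so no test is given for them.

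In the other direction, the pooled stool share at day 28 was at least 197.5-fold higher than lung for Desulfovibrionaceae feature 2, at least 114.3-fold for Desulfovibrio feature 1, at least 61.1-fold for Bilophila feature 1 and at least 48.8-fold for Desulfovibrio feature 3. Bilophila feature 2 was higher in lung than in stool by 5.25 ± 1.81 (adjusted p = 0.00534), where the median feature differed by -4.73. Bilophila feature 2 was also higher in oral swab than in stool by 5.56 ± 1.86 (adjusted p = 0.00768), a call that was lost without oral control library 5 (2.23). At day 28 this feature was seen in 10 of 12 lung libraries, 3 of 12 oral swabs (170 counts) and 1 of 12 stool libraries (23 counts). Its difference between oral swab and stool thus rests on few libraries. Of 12 member features among the 1465 tested, 11 differed between lung and stool (78% of all features did), 4 of them higher in lung (28.6% of all) and 7 lower (49.4%). The counts were 1 for colon against stool (25.1%), 4 for oral swab against stool (53.2%), 9 for colon against lung (37%) and 7 for lung against oral swab (28.5%). Some of the 12 passed the filter only through the site where they are high and had to differ, so these counts are descriptions.

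**Figure D5:**
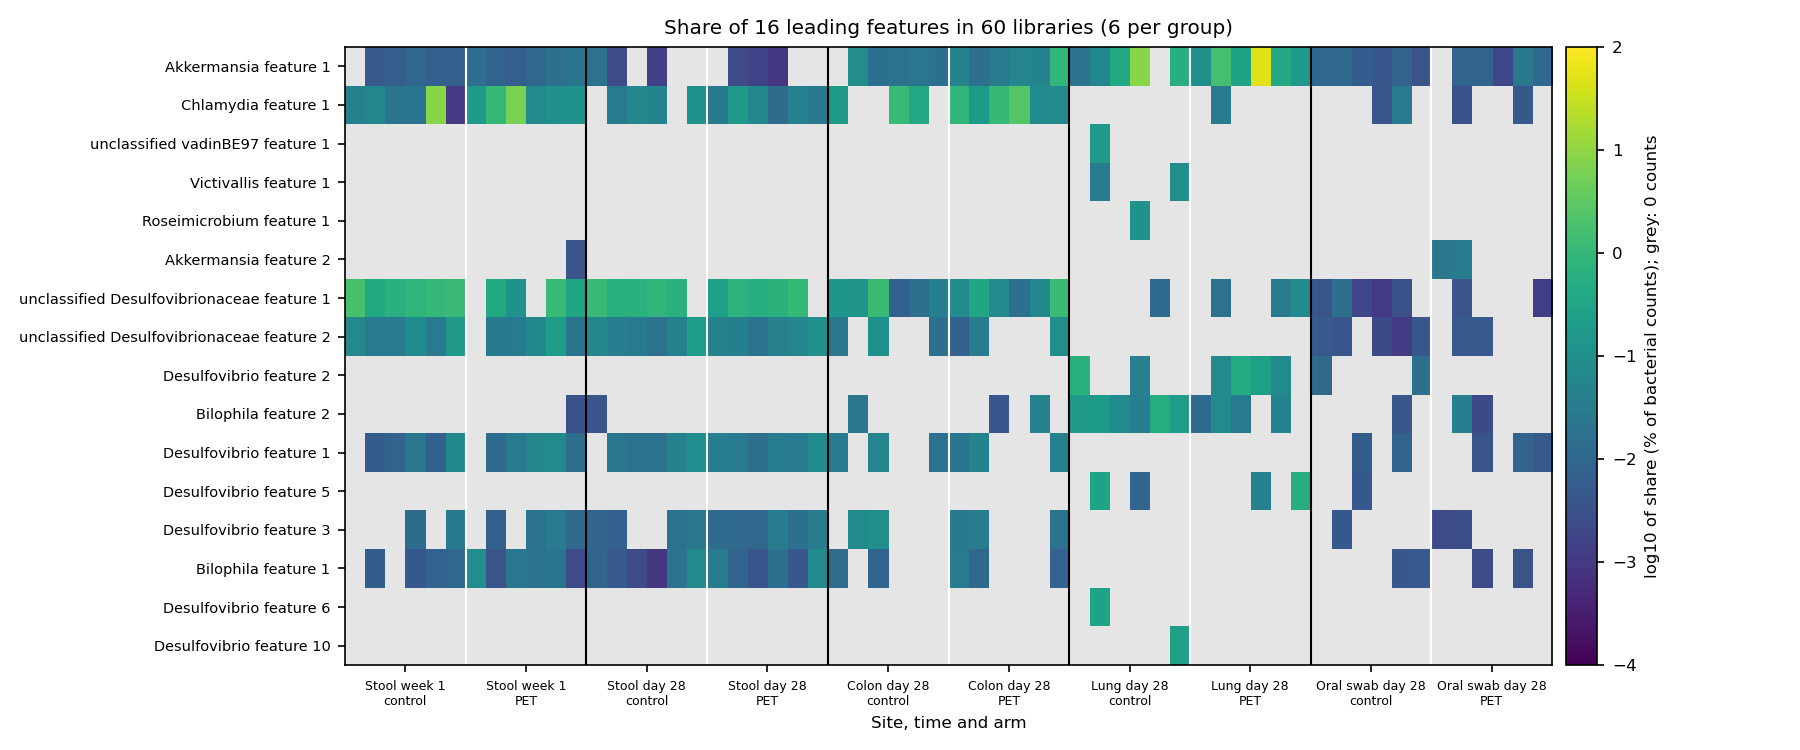
The map shows the share of 16 leading features (vertical) in 60 libraries (horizontal, 6 per group), coloured by the log10 of the percent of bacterial counts, with grey for 0 counts. Desulfovibrio features 1 and 3 and Bilophila feature 1 are coloured in 21, 16 and 22 of 24 stool columns. They are grey in all 12 lung columns, where Desulfovibrio features 2 and 5 are coloured in 6 and 4.

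At genus level these opposing features were summed. Unclassified Desulfovibrionaceae was lower in lung than in stool by a log2 difference of -5.97 ± 1.14 (adjusted p = 6.90e-06) and lower in oral swab than in stool by -5.13 ± 1.09 (adjusted p = 8.64e-05). Colon exceeded lung by 5.50 ± 1.11 (adjusted p = 0.000112). Colon and stool did not differ past the threshold, at -0.47 ± 0.91. That sign turned under 3 other settings (0.16, 1.05 and 0.47), while limma called colon lower (-3.80, adjusted p = 0.000146). Desulfovibrio was higher in lung than in stool by 2.76 ± 1.13 (adjusted p = 0.0247), with a distance of -3.31 from the median genus, and limma gave the opposite sign (-2.91, adjusted p = 0.0132). The call was lost without lung control library 6 (1.64), with library totals (2.31), a stricter filter (1.63), TMMwsp (0.81), DESeq2 (0.45) and no filter (0.40). Desulfovibrio exceeded oral swab in lung by 3.23 ± 1.16 (adjusted p = 0.0207), a call lost without lung control library 1, 2 or 6, lung PET library 3 or oral PET library 2 (2.17 to 2.67). It was also lost with TMMwsp (2.54), other filters (1.61 with none, 2.45 with a stricter one), confident labels (2.73), non-bacterial features kept (2.74), DESeq2 (1.53) and limma (1.06). With all 48 libraries and TMM, Bilophila did not pass the edgeR threshold in any site comparison (lung minus stool 2.65 ± 1.28, adjusted p = 0.0584). Lung minus stool passed in 12 of 48 fits with 1 library left out, whose values ran from 1.12 to 3.39, and without the 4 libraries of the other number range (3.27, edgeR adjusted p = 0.0493) or with non-bacterial features kept (3.27, edgeR adjusted p = 0.0213). Lung minus oral swab passed with library totals (4.41, edgeR adjusted p = 0.0171) and with limma (3.06, adjusted p = 0.00460). On centred log ratios limma called Bilophila lower in colon (-2.12, adjusted p = 0.0456) and oral swab (-4.30, adjusted p = 2.03e-05) than in stool, and Desulfovibrio lower in colon than in stool (-3.83, adjusted p = 0.00171), where edgeR gave 0.97, 0.18 and 0.67. It also called Desulfovibrio lower in oral swab than in stool (-3.97, adjusted p = 0.000964, against -0.47 with edgeR), as edgeR did with library totals (-3.20, adjusted p = 0.0416).

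No genus or feature of Desulfobacterota passed the threshold between the arms. In lung Bilophila had a mean of 0.227% ± 0.227 in controls and 0.0341% ± 0.0270 in PET libraries (SD, n = 6). The arms overlapped, since control library 4 (0.0372%) lay below PET libraries 2 and 5. The log2 difference was -3.25 ± 1.62 (edgeR adjusted p = 0.550), and -2.46 without the lung control libraries 5 and 6. The exact two-sided permutation test gave p = 0.00866 and an adjusted p of 0.378.

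In oral swabs the Desulfovibrio shares of the arms did not overlap, if barely. How many of all genera had arms without overlap was not measured, so this is a description only. Control libraries had 0.0120%, 0.00856%, 0.0102%, 0.00883%, 0.00817% and 0.0166%. PET libraries had 0.00251%, 0.00276%, 0.00353%, 0, 0.00816% and 0.00476%. The lowest control (0.008166%) and highest PET library (0.008162%) differed by less than their Wilson intervals, 0.00587% to 0.0114% and 0.00456% to 0.0146%. The log2 difference was -1.89 ± 1.02 (adjusted p = 0.864), and the exact permutation test gave p = 0.00433 and an adjusted p of 0.762. Here 0.0% of 176 genera were called, and 256 oral counts of the genus stood behind all 12 values.

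In week 1 stool unclassified Desulfovibrionaceae had a mean of 1.06% ± 0.510 in controls and 0.406% ± 0.506 in PET libraries (SD, n = 6). The arms overlapped through PET library 5 (1.37%). The log2 difference was -1.62 ± 1.10 (adjusted p = 0.662), with an exact permutation p = 0.0260 and an adjusted p of 0.396. Bilophila differed the other way in week 1 stool, by 2.24 ± 1.12 (adjusted p = 0.511; exact permutation p = 0.0476, adjusted p = 0.415), with 0.0870% in PET library 1 and 0 in control libraries 1 and 3. At day 28 the stool differences were -0.28 ± 0.52, 0.38 ± 0.68 and 0.35 ± 1.13 for unclassified Desulfovibrionaceae, Desulfovibrio and Bilophila, and in colon they were 0.14 ± 1.25, -0.06 ± 1.78 and 1.63 ± 1.97. In lung unclassified Desulfovibrionaceae differed by 1.90 (edgeR adjusted p = 0.967), with an exact permutation p = 0.0346 and an adjusted p of 0.672. The lung difference of Desulfovibrio, -0.49 ± 1.54, turned to 0.14 without control library 1 and 0.48 without control library 2.

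Over time in stool the 3 genera differed by -0.71 ± 0.89, 0.15 ± 0.70 and 1.66 ± 1.18 in controls and by 0.88 ± 0.89, 0.46 ± 0.70 and -0.30 ± 1.15 in PET libraries, in the same order, with no adjusted p below 0.459. Other bacteria that live on mucin sugars or in mucus, 9 genus labels with Bacteroides, Mucispirillum and Helicobacter among them, gave 0 calls in the 5 exposure comparisons and in both time comparisons, with 7 to 9 labels tested. Of 3 other hydrogen users, 1 or 2 were tested in each of these and 0 were called.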

How the data were processed

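The assay read V3 to V4 amplicons of the 16S rRNA gene in 60 libraries. The authors deposited whole-number counts of each feature per library, without normalization, and a taxonomy table with a classifier confidence, a fraction. cutadapt, Bowtie2 and GRCm39 appear in the submitters' processing notes, and the sources used here give no denoiser, classifier or database. Features without a taxonomy line and non-bacterial ones were left out, which kept 7922 features with 99.3% of counts under 567 genus labels. Counts, by genus and by feature, were tested with edgeR 4.0.16 (R 4.3.3, TMM, quasi-likelihood F test, Benjamini-Hochberg over the whole table, threshold 0.05; a row needed 10 counts and a count in 3 libraries). The code was tested on simulated data. Alternatives were TMMwsp, library totals, DESeq2 1.42.0, limma 3.58.1 on centred log ratios, exact permutation tests, other filters, a confidence of at least 0.9, non-bacterial features kept and libraries left out. The permutation test over time was added after seeing the data.

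Named were genus labels with at least 10 counts, the 6 Verrucomicrobiota and 10 Desulfobacterota features of highest mean share, called features, and up to 4 called features per site comparison. Members and lists were chosen with earlier results of these data known. Reads from PCR carried no molecular identifiers, so 95% Wilson intervals and floors (3 counts) cover counting error only.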

Additional observations from a re-analysis of the deposited data

Results flagged for a closer look

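In 19 of 49 groups of 6 libraries, 1 library's share stood apart from the other 5 by Dixon's criterion. For normally distributed values chance alone gives about 1 in 20 groups, and the rate for skewed shares with zeros was not measured. Each value is given with the next highest share of its group.

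For Chlamydia these were week 1 stool control library 5 (8.65%, next 0.0625%), week 1 PET library 3 (6.32%, next 1.01%) and day 28 PET library 2 (0.169%, next 0.0626%). Lung PET library 2 held 0.0275% against 0 in the other 5, and oral control library 5 held 0.0289% against 0.00353%.

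For Akkermansia they were lung PET library 4 (52.7%, next 1.72%), lung control library 4 (8.74%, next 0.567%), colon PET library 6 (0.891%, next 0.0535%), colon control library 2 (0.0919%, next 0.0251%) and day 28 stool control library 1 (0.0176%, next 0.00234%). Replicate numbers do not tie the lung libraries numbered 4 to each other.

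For unclassified Desulfovibrionaceae they were week 1 stool PET library 5 (1.37%, next 0.462%), colon control library 3 (1.35%, next 0.167%), colon PET library 6 (1.30%, next 0.396%) and oral control library 2 (0.0210%, next 0.00903%). Colon PET library 6 thus stood apart for both Akkermansia and this group.

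Desulfovibrio stood apart in week 1 stool control library 6 (0.121%, next 0.0447%). Bilophila did so in week 1 stool PET library 1 (0.0870%, next 0.0232%), day 28 stool control library 6 (0.0706%, next 0.0188%), lung control library 5 (0.667%, next 0.228%) and oral PET library 2 (0.0384%, next 0.00441%).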

How the results depend on the processing

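No paired analysis was possible because the labels link no library to a mouse across sites or times and the replicate numbers follow accession order. With 1 library left out, 1470 of 1488 counts of called members stayed within 1.5 times. With other settings 429 of 484 did. Both totals include the exposure and time comparisons, where edgeR called no member with all libraries. A count that stayed empty was scored there as unchanged. Some site fits also left out a library of neither site compared. The totals therefore do not measure how stable the calls were. The cause of the changes was not tested, except that a confidence of at least 0.9 removes Akkermansia feature 1. DESeq2 gave no adjusted p for Akkermansia in lung exposure and the 5 site comparisons, Chlamydia in week 1 stool exposure and unclassified Victivallaceae in oral swab minus stool, which stay out of lost calls.

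Counts that moved over time, from 0, were in controls 1 Verrucomicrobiota genus and 1 feature with DESeq2 and 1 feature with no filter, and in PET libraries 2 genera and 1 feature with DESeq2, and 1 genus with limma and with the permutation test. For colon minus stool, Verrucomicrobiota genera (2) became 1 with library totals, limma or confident labels, and features (1) became 2 with TMMwsp, limma or a stricter filter and 0 with no filter or confident labels. Desulfobacterota genera (0) became 3 with limma, and features (0) became 1 with TMMwsp, library totals, DESeq2 or a stricter filter and 5 with limma. For lung minus stool, Verrucomicrobiota genera and features (2 each) became 1 with confident labels, and Desulfobacterota genera (2) became 1 with TMMwsp, library totals, DESeq2 or either other filter. For oral swab minus stool, Verrucomicrobiota genera (2) became 0 with confident labels, and features (1) became 3 with limma and 0 with no filter or confident labels. Desulfobacterota genera (1) became 2 with library totals and 3 with limma, and features (3) became 8 with limma and 1 with no filter. For colon minus lung, Verrucomicrobiota genera (2) became 1 with limma or confident labels, and features (1) became 2 with TMMwsp, library totals or a stricter filter. For lung minus oral swab, Verrucomicrobiota genera (2) became 1 with library totals or confident labels and 0 with limma, and features (2) became 1 with library totals, limma, no filter or confident labels. Desulfobacterota genera (1) became 2 with library totals and 0 with TMMwsp, other filters, confident labels or non-bacterial features kept, and features (5) became 3 with limma.

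With 1 library left out, the counts ran from 1 to 3 for lung minus stool Desulfobacterota genera and for oral swab minus stool and lung minus oral swab Verrucomicrobiota genera, from 1 to 2 for colon minus lung Verrucomicrobiota genera and for Verrucomicrobiota features in the 4 site comparisons other than lung minus stool, and from 0 to 1 for colon minus stool Desulfobacterota features and lung minus oral swab Desulfobacterota genera. Log2 differences that changed sign ran from -1.0 to 1.87 (Chlamydia, colon exposure), -2.24 to 6.19 (Akkermansia, lung exposure), -1.36 to 0.48 (Desulfovibrio, lung exposure), -5.88 to 0.38 (Chlamydia, control time), -4.81 to 3.28 (Chlamydia, exposure by time) and -1.26 to 0.70 (unclassified Desulfovibrionaceae, colon minus stool). Other differences that edgeR did not call with all libraries also changed sign, in exposure from -2.41 to 5.56 (Chlamydia, week 1 stool), -0.27 to 0.82 (Desulfovibrio, week 1 stool), -0.24 to 0.96, -2.04 to 0.49 and -0.45 to 1.55 (Chlamydia, Akkermansia and Bilophila, day 28 stool), -0.57 to 1.64 and -0.99 to 0.77 (unclassified Desulfovibrionaceae and Desulfovibrio, colon), and -0.87 to 1.41 and -0.24 to 0.41 (Bilophila and Akkermansia feature 1, oral swab). In stool over time the spans were -0.36 to 0.65 (Desulfovibrio, controls), -0.88 to 0.63 (Bilophila, PET) and -0.19 to 0.81 (Desulfovibrio, exposure by time), and between sites -0.15 to 1.34 (Bilophila, colon minus stool), and -0.75 to 0.51 and -0.50 to 0.56 (Desulfovibrio and Bilophila, oral swab minus stool).

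Signs also turned for Chlamydia in colon exposure (library totals 1.47, limma 2.81, confident labels 0.33, permutation 4.05), Desulfovibrio in lung exposure (limma 0.54, permutation 0.89), unclassified Desulfovibrionaceae in colon minus stool (confident labels 0.16, non-bacterial kept 1.05, without the 4 libraries of the other number range 0.47) and in lung minus oral swab (library totals 1.66), and its feature 1 there (TMMwsp 0.39, library totals 1.68, against -4.22). Akkermansia turned with confident labels in colon minus lung (0.64) and lung minus oral swab (-2.11), and in lung minus stool limma turned Desulfovibrio (-2.91) and Bilophila (-1.24). In exposure, limma and the permutation test turned Chlamydia in week 1 stool (2.32 and 2.71), Akkermansia in day 28 stool (0.14 and 0.19) and Akkermansia feature 1 in oral swab (-0.32 and -0.37). In colon exposure unclassified Desulfovibrionaceae turned with TMMwsp (-0.10), DESeq2 (-0.021) and limma (-0.58), and Desulfovibrio with no filter (0.53). Over time Desulfovibrio of controls turned without the 4 libraries (-0.43) and Bilophila of the PET arm with DESeq2 (0.018) and limma (0.30). In colon minus stool Desulfovibrio turned with TMMwsp (-0.34), library totals (-0.57), limma (-3.83) and no filter (-0.18), and Bilophila with TMMwsp (-0.68), library totals (-0.81), DESeq2 (-0.22), limma (-2.12) and no filter (-0.68). In oral swab minus stool Desulfovibrio turned with non-bacterial features kept (0.37) and without the 4 libraries (0.70), and Bilophila with TMMwsp (-1.85), library totals (-2.32), DESeq2 (-0.95), limma (-4.30), no filter (-0.83), a stricter filter (-0.33) and confident labels (-0.14).

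With confident labels Akkermansia means became 0 (from 1.64% in lung controls, 0.181% in colon PET, 0.00355% in day 28 stool controls, and in week 1 control, day 28 PET and oral control libraries), 0.00604% (from 9.23%, lung PET), 0.00126% (from 0.0278%, colon control) and 0.000851% (week 1 PET). Other means became larger, with Chlamydia at 0.987% (colon control) and 1.74% (colon PET), Desulfovibrio at 0.00677% (oral PET) and 0.0756% and 0.0580% (from 0.0454% and 0.0333%, colon control and PET), Bilophila at 0.0406% (colon PET), and unclassified Desulfovibrionaceae at 0.475% and 0.590% (from 0.287% and 0.320%, colon control and PET). Depth limits detection where it was low, down to 10543 counts in lung and 16521 in week 1 stool.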
